A study of Mus musculus with 9 samples.

Results

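A set of 9 genes of the Hippo-YAP pathway was read out of bulk RNA sequencing of the newborn mouse anterior segment. They were the coactivator genes Yap1 and Wwtr1 (which encodes TAZ), the transcription factor gene Tead1, the kinase gene Lats2, the scaffold genes Amotl1, Amotl2 and Ajuba, and the mechanically responsive target genes Ankrd1 and Dlc1. They were named by symbol and matched to Ensembl identifiers in a GRCm38 annotation, and all 9 were found among the 35275 genes counted. The wildtype group was Col4a1+/+ (3 libraries) and the mutant group was Col4a1+/G1344D (6 libraries), heterozygous for a glycine substitution in the type IV collagen alpha-1 chain, both at postnatal day 0. The labels name no treatment in either group and no strain. Each library pooled 4 eyes from 2 mice and held cornea, iris, ciliary body and drainage tissue after the lens was taken out. The comparison addressed how these genes differ between mutant and wildtype tissue at birth.

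In Hippo signalling the kinases LATS1 and LATS2 phosphorylate YAP and TAZ, which keeps them out of the nucleus. Unphosphorylated YAP and TAZ bind TEAD factors on DNA and switch on genes for matrix contact, growth and feedback. The pathway responds to matrix stiffness, cell shape and actomyosin tension, and in the anterior segment it has been studied in the trabecular meshwork and corneal cells. Much of its control lies in phosphorylation and localisation of the proteins, which RNA levels do not measure.

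TEAD factors recognise the 6-letter sequence GGAATG, read as CATTCC on the other strand. It is shown here because TEAD1 is one of the genes described and several of the others are textbook TEAD targets. RefSeq promoter windows of GRCm38.p6, from 250 bases before to 50 bases after a transcript start, covered 7 of the 9 genes. Tead1 and Dlc1 had no entry. At least 1 match on either strand was present in 6 of these 7 genes, with 8 distinct matches, against 16.6% of the 27025 genes with an entry and 14.7% of all 32851 windows. The 30 bases around each match follow, 5′ to 3′ on the gene's own strand, with the motif in capitals.
Yap1, chr9:8004720-8004749, minus strand: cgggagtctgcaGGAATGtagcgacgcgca
Wwtr1, chr3:57576029-57576058, minus strand: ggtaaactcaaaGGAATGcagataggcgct
Lats2, chr14:57746102-57746131, minus strand: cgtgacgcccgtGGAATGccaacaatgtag
Amotl2, chr9:102717727-102717756, plus strand: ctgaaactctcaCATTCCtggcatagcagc
Ankrd1, chr19:36120037-36120066, minus strand: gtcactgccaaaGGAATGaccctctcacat
Ankrd1, chr19:36119950-36119979, minus strand: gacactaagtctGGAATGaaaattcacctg
Ajuba, chr14:54577830-54577859, minus strand: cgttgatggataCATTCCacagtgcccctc
Ajuba, chr14:54577808-54577837, minus strand: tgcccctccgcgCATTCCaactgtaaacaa
The match begins 141 bases before the start in Yap1, 136 in Wwtr1 and 65 in Amotl2. It begins 210 and 123 bases before the start in Ankrd1, and 186 and 164 in Ajuba. In Lats2 it lies just past the start of 1 of 2 annotated windows, and the window of Amotl1 held no match. A match is a description of the letters and does not show binding.

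The counts summed to between 25995340 and 35306935 per library. Values are CPM, counts scaled to a common library size by TMM, and levels are compared between genes as RPKM, CPM per kilobase of all annotated exons. Gm42418, which overlaps ribosomal RNA, took between 4.11% and 6.91% of counts in 6 libraries (wildtype 1 and mutants 1, 3, 4, 5 and 6) and between 0.0663% and 0.0708% in wildtype 2, wildtype 3 and mutant 2. The mutated gene Col4a1 ran from 545 to 727 CPM in wildtype and from 920 to 1126 CPM in mutant libraries, and since the mutation is missense this does not check the labels. Wildtype 1 was the lowest of all 9 libraries for 6 of the 8 Hippo-YAP genes with enough counts to test, and mutant 4 was the highest for 6 of the 8. Results are also given without those libraries. A covariate marked whether the Gm42418 share was above 1%, and so did not adjust for its range among the high libraries. With it the same 3 genes as below were called (edgeR adjusted p = 0.0186 for Dlc1, 0.0374 for Lats2 and 0.0469 for Tead1). Each side of that split holds only 1 library of one genotype, too few for values within it.

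The tested Hippo-YAP genes split into 3 that rose in the mutant and 5 that did not pass the test. Dlc1, Tead1 and Lats2 rose by 1.51-fold, 1.45-fold and 1.25-fold (edgeR quasi-likelihood test, Benjamini-Hochberg adjusted p = 0.0044, 0.0125 and 0.0245). None fell, and none had an unadjusted p under 0.05 on the lower side in edgeR, DESeq2 or limma-voom. The 3 of 8 stand beside 9.7% of all 15825 tested genes called higher and 9.47% called lower. The median log2 fold change of the 8 was 0.18, against -0.0019 over all tested genes. Without wildtype 1, 0 of the 8 were called (edgeR), and 3 had an unadjusted p under 0.05. That removal took the count over all genes from 3034 to 538. Without mutant 4, all 3 were called.

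**Figure D1:**
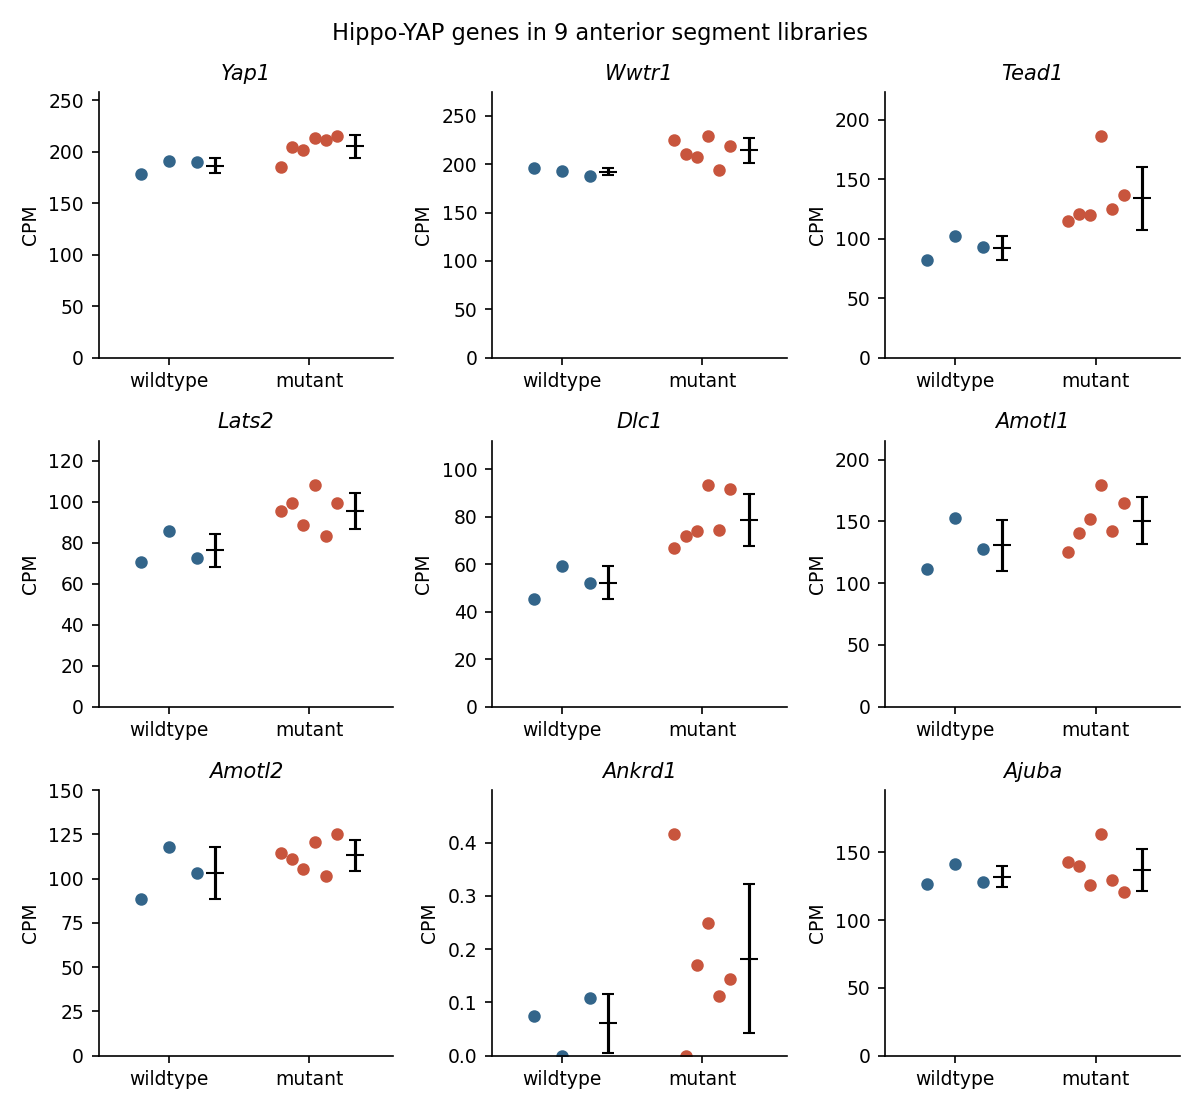
CPM of the 9 Hippo-YAP genes (y axis, each panel from 0) in 3 wildtype and 6 mutant libraries, points in replicate order, with the mean and SD beside each group. For Tead1 and Dlc1 the 6 mutant libraries lie above all 3 wildtype libraries, a separation that 10.8% of tested genes share. The groups overlap for the other genes, and Ankrd1 reaches at most 0.42 CPM.

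Per kilobase of exon, the wildtype levels ran over a wide range. Wwtr1 was highest at 40.2 ± 0.779 RPKM (SD, n = 3), followed by Ajuba at 36.2 ± 2.17, Yap1 at 20.2 ± 0.791, Amotl2 at 16.4 ± 2.32, Amotl1 at 12.97 ± 2.07, Lats2 at 10.9 ± 1.18, Tead1 at 6.80 ± 0.749 and Dlc1 at 3.55 ± 0.48. Ankrd1 was close to 0 at 0.021 ± 0.0191 RPKM. Amotl2 and Amotl1 overlapped in their wildtype libraries, as did Amotl1 and Lats2, so their order is within the spread. The other neighbours did not overlap. In the mutant the order was the same by group means, from Wwtr1 at 44.9 ± 2.67 RPKM (SD, n = 6) down to Dlc1 at 5.36 ± 0.745. The exon length is the union over all annotated isoforms, so a gene with many isoforms reads low on this scale.

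Yap1 (ENSMUSG00000053110, chromosome 9, 7931999 to 8004596, minus strand) encodes the YAP coactivator. It stood at 178, 191 and 190 CPM in wildtype 1 to 3, and in the mutant at 186 at the lowest, 208 at the median and 215 at the highest. Of the 6 mutant libraries 5 lay above all wildtype libraries, and mutant 1 lay between them. The fold was 1.10, with a 95% interval of 0.991 to 1.22 that is not adjusted for the number of genes (edgeR adjusted p = 0.187). With the exon length trend removed, described below, the log2 fold change went from 0.14 to -0.04. Exons of Yap1 share 116 bases with Gm20416 on the other strand, which had 0 counts in every library.

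Wwtr1 (ENSMUSG00000027803, chromosome 3, 57455649 to 57575910, minus strand) encodes TAZ, the partner of YAP. Its wildtype libraries were close together at 196, 193 and 188 CPM, and the mutant libraries ran from 194 through a median of 215 to 229 CPM. Again 5 of 6 mutant libraries exceeded every wildtype library, the exception here being mutant 5. The fold was 1.115, with an interval of 1.003 to 1.24 (edgeR adjusted p = 0.137). The ratio of Yap1 to Wwtr1 counts within a library, which does not depend on scaling, was between 0.91 and 1.01 in wildtype and between 0.823 and 1.09 in mutant. Its log2 differed by -0.02 between the groups (exact two-sided permutation over 84 splits, p = 0.786, adjusted p = 0.786 over the 4 ratios tested).

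Tead1 (ENSMUSG00000055320, chromosome 7, 112679318 to 112906807, plus strand) encodes a TEAD transcription factor, the DNA-binding partner of YAP and TAZ. Wildtype 1 to 3 held 81.9, 102 and 92.7 CPM, and the mutant libraries ran from 115 through a median of 123 to 186 CPM. The lowest of the 6 mutant libraries exceeded the highest wildtype library, a separation that 10.8% of tested genes share, and mutant 4 stood well above the other mutants. The mean went from 92.3 ± 10.2 (SD, n = 3) to 134 ± 26.6 CPM (SD, n = 6), a log2 fold change of 0.54 (SE 0.133). The call was lost without wildtype 1 (log2 0.46, edgeR adjusted p = 0.104, in a range of 0.00114 to 0.104 over 19 alternatives). With the exon length trend removed the log2 fold change was 0.29 (edgeR adjusted p = 0.0305).

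Among the other TEAD genes, Tead2 fell while Tead3 and Tead4 did not pass the test. Tead2, a TEAD gene of early embryonic and progenitor tissue, was 1.33-fold lower (edgeR adjusted p = 0.00473). It held 105, 91.7 and 85.4 CPM in wildtype 1 to 3 and between 63.1 and 73.6 CPM in the mutant, with a median of 72.0, so every mutant library lay below every wildtype library, as in 11.2% of tested genes. This call too was lost without wildtype 1 (log2 -0.32, edgeR adjusted p = 0.0565, in a range of 0.000217 to 0.0565 over 19 alternatives). Tead3 went from 42.6 ± 4.11 to 47.0 ± 4.97 CPM and Tead4 from 3.12 ± 0.398 to 4.64 ± 1.35 CPM (edgeR adjusted p = 0.361 and 0.123).

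Per kilobase of exon, the make-up of the TEAD RNA pool differed while its size did not separate the groups. The shares and the sum depend on the exon lengths used, 13570 bases for Tead1 and 4788 for Tead2. In mean CPM Tead1 went from 92.3 to 134 and Tead2 from 94.1 to 70.7, so the rise was larger than the fall. The sum over the 4 genes was 31.8 to 34.6 RPKM in wildtype and 31.4 to 34.3 RPKM in mutant libraries. Tead1 made up 17.4%, 21.8% and 21.5% of that sum in wildtype 1 to 3, and from 26.2% to 39.99% in the mutant. Tead2 made up 55.4% to 63.6% in wildtype and 38.4% to 47.5% in the mutant, and remained the largest share in all libraries other than mutant 4. In CPM, Tead1 was instead above Tead2 in wildtype 2, wildtype 3 and all mutant libraries. It was below Tead2 in wildtype 1 (81.9 against 105 CPM). The ratio of Tead1 counts to the summed counts of Tead2, Tead3 and Tead4 was 0.558, 0.722 and 0.707 in wildtype 1 to 3 and from 0.91 to 1.70 in the mutant. The difference of 0.72 in log2 ratio, 1.64-fold, had an exact two-sided permutation p of 0.0119, the smallest that 84 splits can give, and an adjusted p of 0.0476 over 4 ratios. Since Tead1 and Tead2 each separated the groups in opposite directions, this ratio is not separate evidence from those results. It was 0.53 with the exon length trend removed (adjusted p = 0.0476) and 0.59 without mutant 4. With any library left out, a ratio that alone reached the smallest possible p would still have an adjusted p above the threshold. The values with a library left out therefore carry no call.

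**Figure D2:**
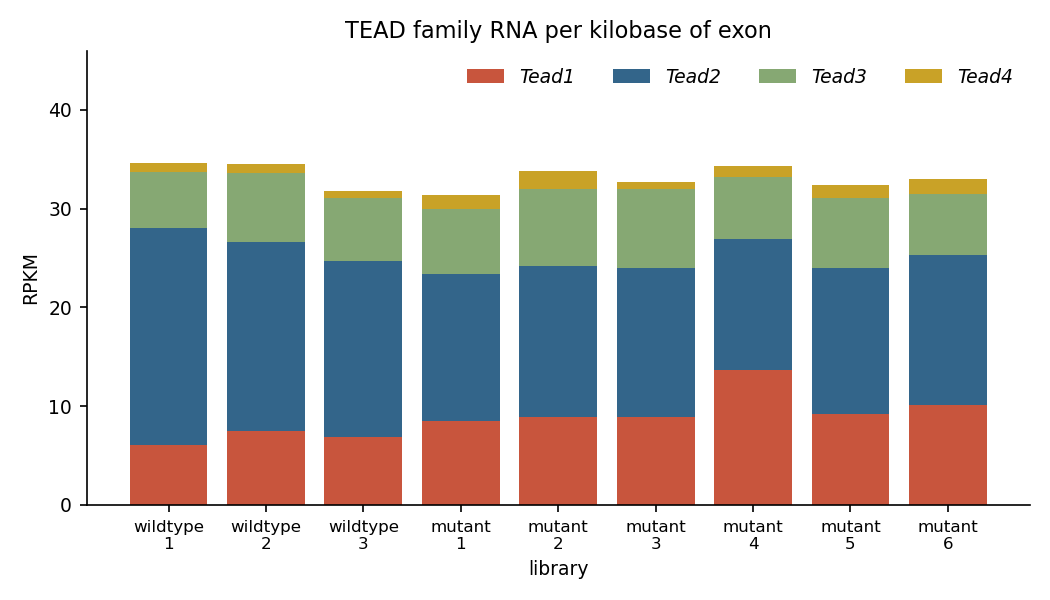
Stacked RPKM (y axis, from 0) of Tead1, Tead2, Tead3 and Tead4 in each of the 9 libraries (x axis). The total height stays between 31.4 and 34.6 RPKM, while the Tead1 segment is 17.4% to 21.8% of it in wildtype and 26.2% to 39.99% in mutant libraries. Heights and shares depend on the exon length used for each gene.

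Vestigial-like (VGLL) cofactors bind TEAD proteins in place of YAP. Their genes and Tead2 to Tead4 formed a list of 7, of which 6 were tested, 0 rose and 1, Tead2, fell in edgeR. For 6 genes these counts are close to the 9.7% called higher and 9.47% called lower over all tested genes. On the higher side 2 of the 6 had an unadjusted edgeR p under 0.05 and DESeq2 called 1. Vgll3, a cofactor of the vestigial-like family, went from 7.87 ± 1.81 to 10.8 ± 1.33 CPM (edgeR adjusted p = 0.0723, DESeq2 adjusted p = 0.0387, in a range of 0.0387 to 0.373 over 19 alternatives). Vgll2 had no counts in any library. The median log2 fold change of the 6 was 0.29.

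Lats2 (ENSMUSG00000021959, chromosome 14, 57689662 to 57758388, minus strand) encodes one of the kinases that inactivate YAP and TAZ, and is itself a known YAP target in a feedback loop. It held 70.5, 85.7 and 72.8 CPM in wildtype 1 to 3, and between 83.2 and 108 CPM in the mutant, with a median of 97.5. The groups overlapped by 1 library, mutant 5, which lay below wildtype 2. The mean went from 76.3 ± 8.21 to 95.8 ± 8.79 CPM, a log2 fold change of 0.33 (SE 0.0945). The call was lost in 4 of 19 alternatives, without wildtype 1 (edgeR adjusted p = 0.152), without wildtype 3 (adjusted p = 0.107) with the exon length trend removed (log2 0.21, adjusted p = 0.102) and among the 6 libraries numbered 1 to 3 (adjusted p = 0.0561), in a range of 0.00561 to 0.152 over 19 alternatives.

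Lats1, the related kinase, is not one of the 9 and is given as the partner of Lats2. It rose 1.33-fold from 74.0 ± 6.26 to 98.1 ± 13.9 CPM (edgeR adjusted p = 0.0176). The ratio of Lats2 to Lats1 counts was 1.05, 1.13 and 0.92 in wildtype 1 to 3 and from 0.87 to 1.10 in the mutant, so the groups overlapped (log2 difference -0.07, exact permutation p = 0.512, adjusted p = 0.683 over 4 ratios).

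Among 22 other genes for Hippo kinases, adaptors and upstream regulators, all tested, 7 rose and 1 fell in edgeR, beside 9.7% and 9.47% of all tested genes, with a median log2 fold change of 0.22. By exon length 11 of the 22 lie in the longest of 5 classes of all genes, described below, and these hold 6 of the 7 that rose, where 24.4% of all genes in that class were called higher. The atypical cadherin gene Dchs1 rose 1.495-fold from 103 ± 10.8 to 154 ± 18.2 CPM (adjusted p = 0.00234). Another atypical cadherin gene, Fat1, had a mean of 178 ± 29.6 CPM in wildtype and 269 ± 57.1 CPM in mutant libraries, a rise of 1.52-fold (adjusted p = 0.0156). Ptpn14, a phosphatase that restrains YAP, rose 1.31-fold (adjusted p = 0.0146). Wtip, a LIM-domain relative of Ajuba, was the gene that fell, by 1.38-fold from 55.1 ± 4.91 to 39.9 ± 4.3 CPM (adjusted p = 0.00664). The core cassette genes Stk3, Stk4, Sav1, Mob1a and Mob1b and the merlin gene Nf2, picked with their values in view, stayed above the threshold (edgeR adjusted p from 0.0604 to 0.602). Of these, Stk4, Mob1a and Mob1b were higher at an unadjusted edgeR p under 0.05, and the core kinase gene Lats1 was among the 7 that rose. At that unadjusted level 13 of the 22 were higher and 1 lower. DESeq2 called 10 higher and 1 lower, and limma-voom 11 higher and 1 lower. Without wildtype 1, 1 of the 22 was called higher and 0 lower in edgeR (9 and 1 at an unadjusted p under 0.05), and Fat1, Ptpn14 and Wtip lost their calls at log2 fold changes of 0.47, 0.29 and -0.39, against 0.60, 0.39 and -0.46 with all libraries. With the exon length trend removed 4 were called higher and 1 lower, and Ptpn14 was not called.

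None of the 3 scaffold genes passed the test. AMOTL1 and AMOTL2 are junctional motin proteins that bind YAP and hold it in the cytoplasm, and Amotl2 is a known YAP target. Amotl1 (ENSMUSG00000013076, chromosome 9, 14541966 to 14645056, minus strand) held 111, 153 and 128 CPM in wildtype 1 to 3, and 125 to 179 CPM in the mutant, with a median of 147. Only 2 mutant libraries, 4 and 6, exceeded all wildtype libraries. The fold was 1.15, with an interval of 0.978 to 1.36 (edgeR adjusted p = 0.211).

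Amotl2 (ENSMUSG00000032531, chromosome 9, 102716672 to 102733418, plus strand) held 88.6, 118 and 103 CPM in wildtype 1 to 3, and 102 to 125 CPM in the mutant, with a median of 113. Mutants 4 and 6 were again the libraries above the wildtype range. The fold was 1.10, with an interval of 0.954 to 1.26 (edgeR adjusted p = 0.349). The ratio of Amotl1 to Amotl2 counts was 1.25, 1.30 and 1.24 in wildtype 1 to 3 and ran from 1.09 to 1.48 in the mutant (log2 difference 0.07, exact permutation p = 0.476, adjusted p = 0.683 over 4 ratios).

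Ajuba (ENSMUSG00000022178, chromosome 14, 54567472 to 54577558, minus strand) encodes a LIM protein that binds LATS kinases at tense cell junctions. It held 127, 141 and 128 CPM in wildtype 1 to 3, and 121 to 163 CPM in the mutant, with a median of 135. Of the mutant libraries 2 lay above the wildtype range and 2 below it. The fold was 1.04, with an interval of 0.907 to 1.19 (edgeR adjusted p = 0.727).

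**Figure D3:**
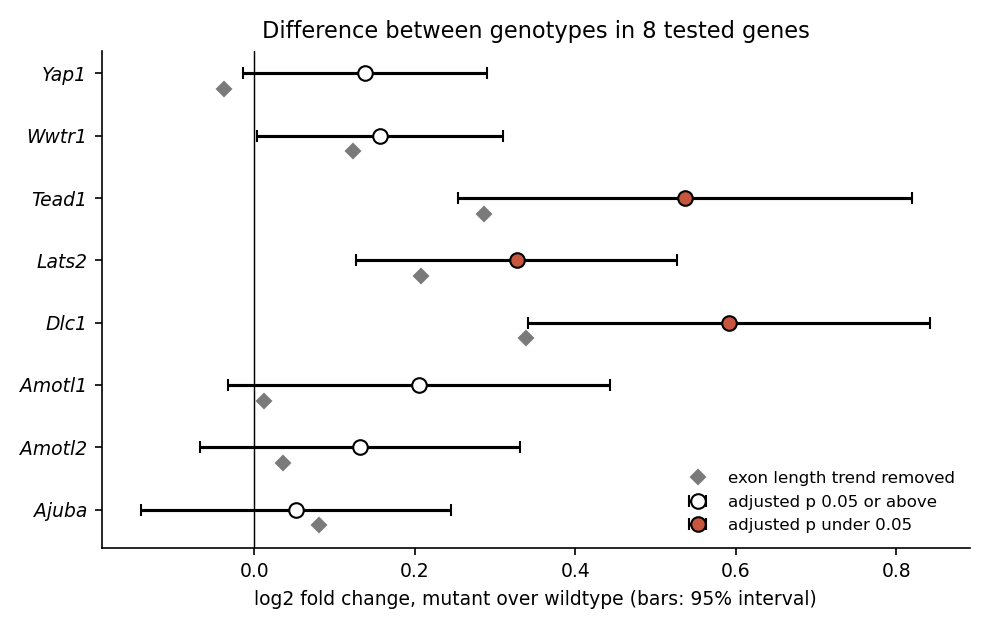
Fitted log2 fold change of mutant over wildtype (x axis) for the 8 tested genes, circles with unadjusted 95% intervals, filled where the edgeR adjusted p is under 0.05. Grey diamonds give the value with the exon length trend removed, which is 0.29 for Tead1, 0.34 for Dlc1 and 0.21 for Lats2.

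Dlc1 (ENSMUSG00000031523, chromosome 8, 36567751 to 36953143, minus strand) encodes a GTPase-activating protein found at focal adhesions, and its transcription is known to respond to YAP and to stiffness. It held 45.3, 59.4 and 52.0 CPM in wildtype 1 to 3, and 67.0 to 93.3 CPM in the mutant, with a median of 74.3. Every mutant library exceeded every wildtype library, as in 10.8% of tested genes. The mean went from 52.2 ± 7.05 (SD, n = 3) to 78.7 ± 11.0 CPM (SD, n = 6), a log2 fold change of 0.59 (SE 0.118). Without wildtype 1 the log2 fold change was 0.50 and the edgeR adjusted p was 0.05003, just over the threshold, in a range of 6.81e-05 to 0.05003 over 19 alternatives. With the exon length trend removed it was 0.34 (edgeR adjusted p = 0.0106).

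Ankrd1 (ENSMUSG00000024803, chromosome 19, 36111961 to 36120099, minus strand) encodes a muscle ankyrin repeat protein and is a widely used YAP target. It was barely detected and did not pass the filter on low counts. It had 2, 0 and 3 counts in wildtype 1 to 3 and 12, 0, 6, 7, 4 and 4 counts in mutants 1 to 6. Summed counts gave a ratio of 2.87 with an exact 95% interval of 1.11 to 9.41, which covers counting error only, and both groups held a library at 0. Markers of skeletal muscle, another known source of Ankrd1 RNA, summed to 11.9 to 18.1 CPM in wildtype and 13.1 to 18.7 CPM in mutant libraries. Of the 8 tested, 0 were called in edgeR in either direction, beside 19.2% of all tested genes, and 0 had an unadjusted p under 0.05. Most of the sum was Des, with means of 9.91 CPM in wildtype and 10.4 CPM in mutant libraries. The next was Myh3, at 1.96 CPM in the mutant, and Myog and Neb did not pass the filter. At such low levels a difference is hard to detect, and the part of muscle in the Ankrd1 counts was not tested.

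Of 20 other YAP/TAZ target genes, all tested, 9 rose and 0 fell in edgeR, beside 9.7% and 9.47% of all tested genes, with a median log2 fold change of 0.32. The longest of the 5 exon length classes holds 7 of the 20 and 4 of the 9 that rose. DESeq2 called 11 higher and 0 lower, and 1 gene had an unadjusted edgeR p under 0.05 on the lower side. Ptpn14 stands in this list and in the list of regulators above. Ccn2, a matricellular protein of matrix adhesion, held 66.0, 81.7 and 75.6 CPM in wildtype 1 to 3, and 92.1 to 171 CPM in the mutant, with a median of 120. The groups did not overlap, and the log2 fold change was 0.78 (SE 0.148, edgeR adjusted p = 0.00382). Igfbp3, an insulin-like growth factor binding protein gene, rose 1.34-fold from 114 ± 3.19 to 153 ± 13.4 CPM (adjusted p = 0.0039). Myof, a membrane repair protein gene, rose 1.46-fold (adjusted p = 0.00641) and the transmembrane gene Crim1 1.34-fold (adjusted p = 0.00872).

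Not every target passed the test. Ccn1, the close relative of Ccn2 and the textbook early YAP target, picked with its value in view, held 177, 207 and 152 CPM in wildtype 1 to 3, and 132 to 245 CPM in the mutant, with a median of 193. The lowest library of all 9 for Ccn1 was a mutant, and so was the highest (log2 fold change 0.09, SE 0.181, edgeR adjusted p = 0.78). Ccn2 and Igfbp3 kept their calls under all 19 alternatives. Without wildtype 1, 2 of the 20 targets were called higher and Myof and Crim1 were not called. With the exon length trend removed 8 were called higher and 0 lower in edgeR, with 2 at an unadjusted p under 0.05 on the lower side.

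**Figure D4:**
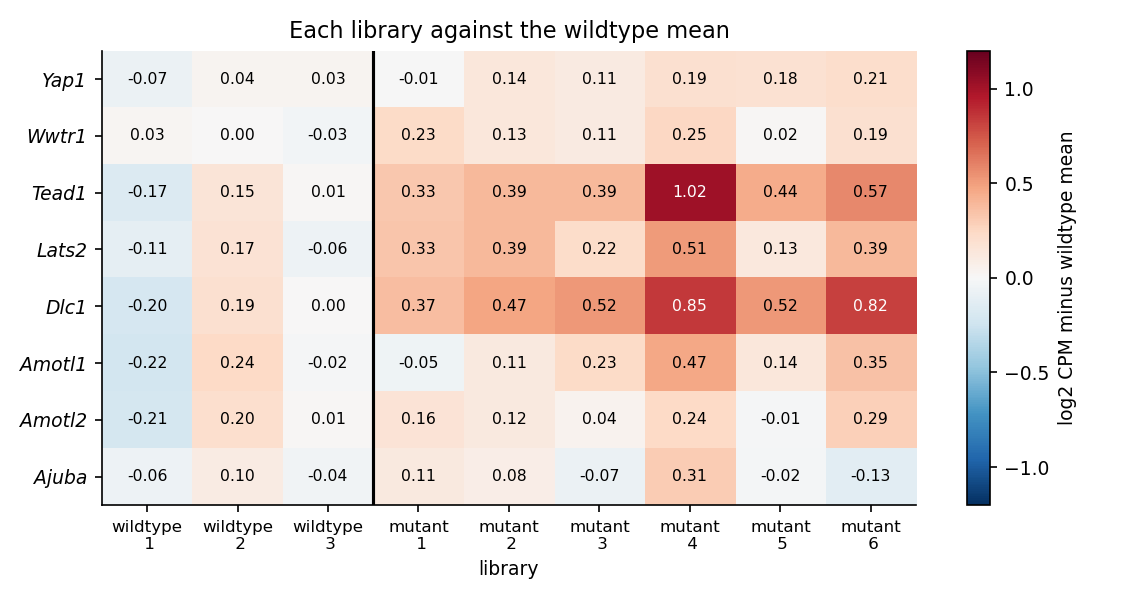
Log2 CPM of each library (columns) minus the wildtype mean of log2 CPM for the 8 tested genes (rows), with the value in each cell and colour from blue (lower) to red (higher). Mutant 4 holds the highest value for 6 of the 8 genes, up to 1.02 for Tead1, and wildtype 1 the lowest for 6 of the 8.

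Long genes were higher in the mutant across the whole transcriptome, and the 3 of the 9 Hippo-YAP genes that rose lie in the longer classes. The risen targets were of mixed length. Ptpn14, Myof and Crim1 had 13413, 12603 and 5995 bases of exon, and Ccn2 and Igfbp3 had 2861 and 3130. The longest class held 4 of the 9 risen targets, and Ptpn14 was not called with the length trend removed. The Spearman correlation between log2 fold change and total exon length was 0.43 across 15751 tested genes, which are not independent of each other. With genes in 5 length classes of near-equal size, the longest, from 7368 bases upwards, had a median log2 fold change of 0.21, and 24.4% were called higher. In the shortest class the median was -0.26, and 2.16% were called higher. Dlc1, with 14694 bases of exon, and Tead1, with 13570, both fall in the longest class, as do Amotl1 with 10064 and Yap1 with 9257. Lats2, with 6971 bases, is in the next class, where the median was 0.09 and 12.8% were called higher. Wwtr1 and Ajuba, with 4779 and 3646 bases, are in the middle class. The values of Tead1, Lats2 and Dlc1 lay above the median of their class, as did those of Wwtr1, Amotl2 and Ajuba, while Yap1 and Amotl1 lay below theirs. With the trend removed, Dlc1 and Tead1 were still called and Lats2 was not. The values for Yap1, Amotl1 and Amotl2 were then -0.04, 0.01 and 0.04, and those for Wwtr1 and Ajuba 0.12 and 0.08, none of them called.

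**Figure D5:**
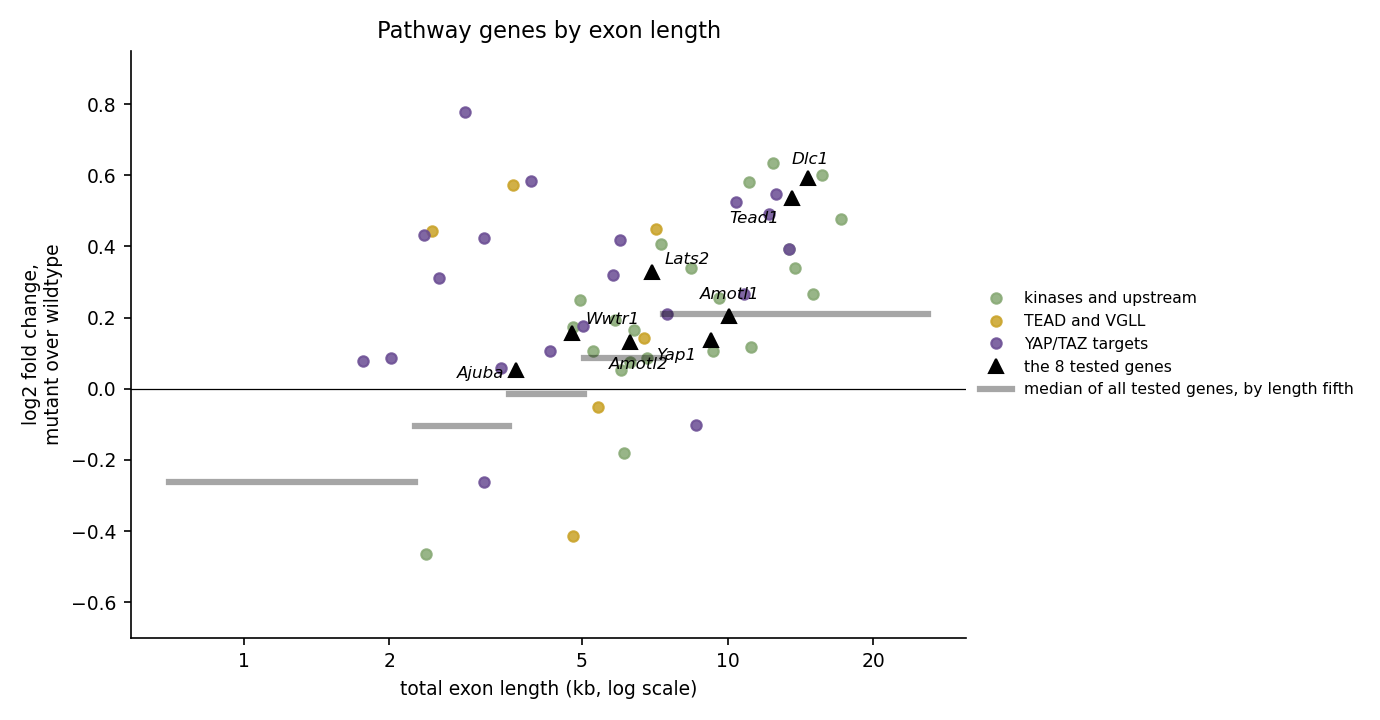
Log2 fold change of mutant over wildtype (y axis) against total exon length in kilobases (x axis, log scale) for the 8 tested Hippo-YAP genes (triangles) and the 3 lists of other pathway genes (circles). Grey bars mark the median of all tested genes in each of 5 classes of exon length, drawn only over the plotted range, and rise from -0.26 to 0.21.

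Cell type markers also differed between the groups, and their part in the results above was not tested. The counts of called markers stand beside 9.7% of all tested genes called higher and 9.47% called lower. In lists this short, 1 call is close to those shares. In bulk tissue fewer cells of a type and less RNA per cell cannot be told apart. Vascular endothelial markers, whose cells also express YAP targets, were called higher for 7 of 8, and their summed level was 401 to 499 CPM in wildtype and 586 to 713 CPM in mutant libraries. Keratocyte markers were called lower for 4 of 7 (10312 to 12985 CPM against 7743 to 10190 CPM), and macrophage markers higher for 3 of 8 (221 to 235 CPM against 332 to 469 CPM). Pericyte and smooth muscle markers split, 3 higher and 4 lower of 8 (1534 to 1644 CPM against 1238 to 1438 CPM), and red cell markers were higher for 4 of 7 (533 to 939 CPM against 1797 to 8787 CPM). Corneal and surface epithelium markers were higher for 1 of 8 and their sums overlapped (7896 to 8894 CPM against 7493 to 8799 CPM).

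Pigment markers were called for 0 of 6 tested in edgeR, with 1 higher and 0 lower at an unadjusted p under 0.05. Their sums were 15441 to 16112 CPM in wildtype and 13714 to 15372 CPM in mutant libraries. Lens markers were lower for 1 of 5 tested (48.8 to 55.9 CPM against 37.2 to 43.5 CPM). Lim2 of the lens and Rpe65 of the pigment epithelium had no counts. Epithelial, keratocyte and pigment markers of the labelled tissue were present in every library.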

How the data were processed

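RNA was sequenced from 9 pooled samples, 3 wildtype and 6 mutant. The authors deposited a table of whole-number counts for each Ensembl gene and library, not normalized. DESeq2 1.6.3, STAR 2.6.1, HTSeq 0.6.1 and the GRCm38 (mm10) build appear in the submitters' processing notes without their roles. The counting annotation and its strand handling were not given in the sources used here. Reads of antisense partners therefore cannot be told apart. Symbols, positions and exon lengths came from GENCODE M21, which held 34490 of 35275 identifiers.

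Counts were tested with edgeR 4.0.16 (R 4.3.3): TMM scaling, default low-count filter, robust quasi-likelihood fit of genotype on 9 libraries, Benjamini-Hochberg adjustment at 0.05 over 15825 genes. The SE is the log2 fold change over the root of F. Spread between pooled samples, which may in part be technical, is what the p-values measure. Ratios used counts plus 0.5. Likeness of pattern used log2 CPM with a prior count of 2, over tested genes with a mean of at least 1 CPM, on autosomes and protein-coding, and named up to the 3 with the highest Pearson r. Alternatives were other scalings and filters, DESeq2 1.42.0, limma-voom 3.58.1, a replicate block, a ribosomal RNA covariate, a smooth on exon length removed per library (mgcv 1.9.3), and each library left out. The edgeR test was checked on simulated counts. The 9 genes, all lists and tests were chosen with earlier results of these data known. Genes named outside the 9 were the 4 of each list with the lowest p, unless said otherwise. No pair of libraries in a group was as close as sampling noise alone would make it, and each counts as 1 replicate. Some genes and lists are not reported here.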

Additional observations from a re-analysis of the deposited data

Results flagged for a closer look

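In 30 checks of the 6 mutant libraries, 1 library stood apart from the other 5 in 4, each time mutant 4, where chance gives about 1 in 20. The checks share the same libraries and some share genes, so the 4 are not independent and cannot show an excess over that share. Mutant 4 had the highest Tead1 level, 186 CPM against 137 for the next library. It had the lowest Tead2 level, 63.1 CPM against 70.7, and so the highest ratio of Tead1 to the summed Tead2, Tead3 and Tead4 counts, 1.70 against 1.14. Myof, a YAP target with 12603 bases of exon, was also highest in mutant 4, at 124 CPM against 98.1. Mutant 4 also had the highest Spearman correlation across genes between exon length and its deviation from the mean of all 9 libraries, 0.47, with mutant 6 next at 0.26 and the other mutants from 0.01 to 0.15. The wildtype libraries were at -0.42, -0.19 and -0.39 in order of replicate number. The part of this in the values above was not tested.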

How the results depend on the processing

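The 3 calls among the Hippo-YAP genes held under the other scalings, filters and tools tried. Removing the length trend gave the lowest log2 fold change of the alternatives for all 3, 0.29 for Tead1, 0.34 for Dlc1 and 0.21 for Lats2. Over the libraries left out in turn, the log2 fold change of Tead1 ran from 0.42 to 0.62, of Lats2 from 0.27 to 0.42 and of Dlc1 from 0.50 to 0.70. The number of Hippo-YAP genes called ran from 0 to 3 and of all genes from 538 to 3265. In the lists it ran from 1 to 9 for kinases and regulators, 0 to 2 for TEAD and VGLL genes and 2 to 11 for YAP/TAZ targets. The log2 ratio of Tead1 to the other TEAD genes ran from 0.59 to 0.78, and that of Yap1 to Wwtr1 from -0.0643 to 0.0256. Over all 12 alternatives for this ratio, not only the libraries left out, that of Yap1 to Wwtr1 went as low as -0.16. With the length trend removed, Yap1 was at -0.0379 and the ratio of Amotl1 to Amotl2 at -0.0252, with 5 regulators called. Limma-voom called 4687 genes over all, the ribosomal RNA covariate left 1877 genes, and DESeq2 called 2 TEAD and VGLL genes. The causes were not tested. Over 542 alternatives of 30 results, 492 were rated the same. For a fold change or ratio this means the same direction and side of the threshold. For a count of genes it means only that the count stayed within a set factor of the main one. Of the rest, 25 fell short of the threshold, 3 passed it, 6 changed sign and 16 counts moved by more than that factor. Of the 25, 10 were for the ratio of Tead1 to the other TEAD genes, with a library left out or the replicate block. There the small number of splits kept this ratio alone from passing, so these 10 do not show a dependence on processing. At 38 counts in all, depth limits what can be said of Ankrd1.

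Replicate numbers 1 to 3 are shared by both groups, but deviations from the group means correlated at 0.09, 0.03 and -0.10 for the same-numbered pairs, and not every library correlated best with its own number. With the replicate block on these 6 libraries, 1447 genes were called, 3 Hippo-YAP genes (Tead1 at 0.37, Dlc1 at 0.46 and Lats2 at 0.32) and 5 regulators. Without the block on the same 6, an alternative added after seeing the data, 1590 genes were called, 2 Hippo-YAP genes (Tead1 at 0.37 and Dlc1 at 0.45, while Lats2 at 0.31 was not) and 3 regulators. Under the block the ratio of Tead1 to the other TEAD genes was 0.51 in log2, that of Amotl1 to Amotl2 -0.0077 and that of Lats2 to Lats1 0.0498, where 3 pairs cannot pass the threshold.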

Other observations

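The Hippo-YAP genes varied together between libraries to different degrees. Over the 9 libraries the 28 pairs of tested genes had a median Pearson r of 0.73 in log2 CPM, from 0.12 for Yap1 with Ajuba to 0.94 for Tead1 with Dlc1. After each group's mean was taken out the median was 0.64, with the highest value, 0.96, for Dlc1 with Amotl1 and the lowest, -0.27, for Yap1 with Wwtr1. The libraries share depth, the length trend and 2 genotype levels, so these values describe the libraries.

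Among 12612 candidate genes, genes whose pattern over the 9 libraries was among the most like Tead1 were Peg10, Foxo1 and Cd2ap (Pearson r 0.99 each). For Dlc1 they were Tcf4 (r 0.99), Usf3 (r 0.99) and Strn (r 0.98). For Lats2 they were Tgfbr2 (r 0.98), the receptor gene for TGF-beta, Ints1 (r 0.98) and Myo1d (r 0.97). For Yap1 they were Ptprg, Tsc22d2 and Adam17 (r 0.97 each), and for Wwtr1 Sp3 (r 0.97), Polq (r 0.96) and Galnt6 (r 0.95). For Amotl1 they were Cux1 (r 0.99) and Macf1 (r 0.98), for Amotl2 Parva, Scaper and Mmp14 (r from 0.93 to 0.94) and for Ajuba Kansl1l, Usp40 and Sh3bp4 (r from 0.92 to 0.94).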
